A study of Mus musculus with 9 samples.

Results

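Ketamine was compared with saline in the anterior cingulate cortex of mice 8 h after a single injection. All mice were of the inbred strain C57BL/6J. Ketamine at 3 mg/kg, or saline alone, was injected intraperitoneally at ZT5, where ZT (zeitgeber time) counts the hours from lights on, and the tissue of both groups was collected at ZT13. The comparison rests on 6 of the 9 arrays of the series, 3 titled KT (ketamine) and 3 titled Saline. The remaining 3 arrays came from mice kept awake by a slowly rotating bar and given no injection in the labels. They enter the shared estimate of spread and the mean intensity over all 9 arrays, which chose probe sets and ranked genes by brightness. They also enter the normalizations between arrays and the array weights that serve as alternatives. Every gene with a probe set that carried 1 gene symbol was included, which gave 22180 genes, the same 22180 as in the series as a whole. The titles call the arrays of a group biological replicates, and no other label says that each came from a separate mouse, so p-values measure the spread between these samples. The sources used here give neither age nor sex of the mice. In bulk tissue, fewer cells of a type and less RNA per cell cannot be told apart.

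Ketamine blocks the NMDA class of glutamate receptor by lodging in its open pore. At low doses it is known to release glutamate briefly in frontal cortex, and the described routes to its fast antidepressant action run through AMPA receptors, the growth factor BDNF with its receptor TrkB, the mTOR kinase and the inhibition of eEF2 kinase. Immediate-early genes are transcribed within minutes when calcium enters an active neuron through NMDA receptors and calcium channels, chiefly by way of the transcription factors CREB and SRF. Many of their mRNAs are known to be short-lived.

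Values below are linear array intensities. A difference is the mean of log2(intensity + 16) in ketamine minus that in saline, with its standard error from 1 limma fit (n = 3 arrays per group), and the offset of 16 understates the difference of dim genes. Medians of all 9 arrays lay between 97.74 and 106.2, saline arrays among themselves and ketamine arrays among themselves correlated at 0.988 to 0.995 across genes, and differences had a median standard error of 0.109. The number of arrays limits the precision. Ketamine array 3 stood apart from the others in how its values ran with brightness, and saline arrays 1 and 2 held transcripts of the choroid plexus, as given below. Array numbers in the labels follow the groups, so order of hybridisation and treatment cannot be told apart.

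No gene passed an adjusted p of 0.05 (limma, Benjamini-Hochberg over 22180 genes, called 0%, smallest adjusted p 0.87). At an unadjusted p under 0.05 there were 1013 genes (4.57%), against 1109 that a 5% share of 22180 gives, of which 522 had a lower mean after ketamine (2.35%) and 491 a higher one (2.21%). Groups did not overlap, with all 3 ketamine arrays beyond all 3 saline arrays, in 3188 genes (14.4%), 1750 of them lower (7.89%) and 1438 higher (6.48%) after ketamine. Each gene said below to be without overlap is to be read beside these shares. limma-trend also called 0 genes, at 1092 with an unadjusted p under 0.05. Weighting the arrays by their spread called 1439 genes, with a weight of 7.92 on ketamine array 2 and of 0.467 on ketamine array 3, so that this count leans on 1 array. Leaving out 1 array at a time called 0 genes in each of the 6 fits. Values are therefore described here gene by gene and list by list, and none of the named genes passed the adjusted threshold but with array weights. Under array weights 72 of the 137 named genes passed it, beside 6.49% of all genes. Many of the named genes were chosen for a small unadjusted p in these same arrays, so the 72 are no separate support.

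Immediate-early genes had lower intensities after ketamine in nearly all of their measured members. Of 58 measured members of 4 lists (59 genes, with Fosl1 not measured, that is, without a probe set of 1 symbol), 56 had a lower mean after ketamine and 2 a higher one, and the median difference was -0.18, from -0.57 to 0.07. Over all genes 12116 were lower and 10064 higher, with a median of -0.02. At an unadjusted p under 0.05 (limma) there were 25 members, all lower, where 2.35% of all genes were lower at that p. Of the 2 brightest quintiles of genes 3.94% and 2.52% were lower at that p, and 76% and 79.3% had a lower mean. The counts of the 4 lists given below are to be read beside these shares. The count of 25 members was 13 without saline array 2, where 0.951% of all genes were lower at that p. It was 15 without saline array 2 and ketamine array 3 (0.794% of all genes) and 42 with array weights (16.2% of all genes). When any other array was left out it lay between 18 and 23, beside 1.21% to 5.17% of all genes. Groups did not overlap in 30 members, all lower, against 7.89% of all genes and 13.2% and 12.8% of the 2 brightest quintiles of genes.

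Each ketamine array showed the shift. The median member stood at -0.02, 0.05 and -0.04 from the saline mean in saline arrays 1 to 3 and at -0.15, -0.28 and -0.19 in ketamine arrays 1 to 3. Below the saline mean were 52, 55 and 51 of the 58 members in ketamine arrays 1, 2 and 3, beside 46.8%, 56.9% and 53.9% of all genes. Immediate-early genes are mostly bright, with 27 members in the brightest quintile of genes and 18 in the next, and in these brightest 2 quintiles 45.7%, 72.4% and 84.1% of all genes lay below the saline mean. Ketamine array 1, in which the bright genes as a whole were not shifted, had 52 of 58 members below, and 36 of them below every saline array. In that array 22.1% of all genes and 20.2% of those in the brightest 2 quintiles lay below every saline array.

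**Figure D1:**
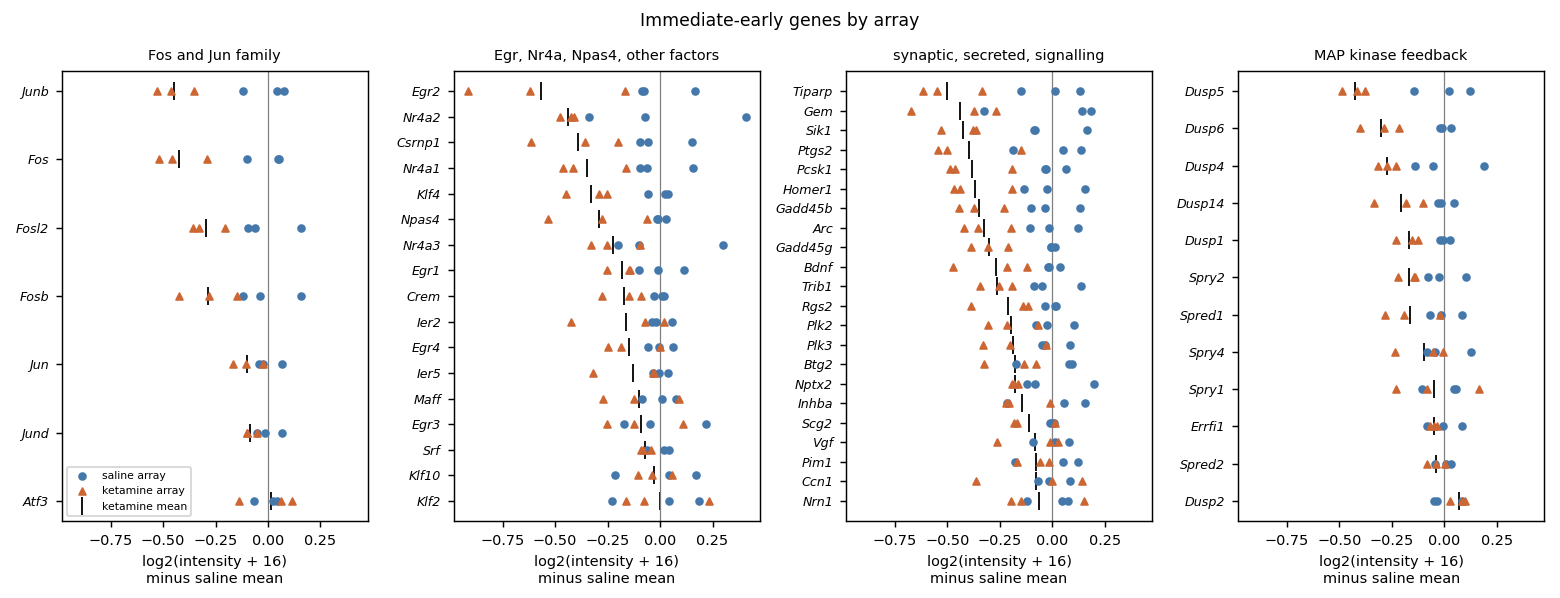
Each row is an immediate-early gene, in 4 panels by role; the x axis is log2(intensity + 16) minus the mean of the 3 saline arrays, circles are saline arrays, triangles ketamine arrays and the black bar the ketamine mean. The bar lies left of 0 for 56 of 58 genes and farthest left for Egr2 at -0.57; under quantile or cyclic loess normalization 52 of 58 means are below 0.

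The Fos and Jun proteins pair to form AP-1, a transcription factor whose subunit genes were among the first immediate-early genes described. Of 7 measured members 6 were lower, the median was -0.28, and 4 lay at an unadjusted p under 0.05. Junb, which encodes a Jun protein with a weaker transactivating domain than Jun, read 564, 577 and 503 in the saline arrays and 425, 374 and 393 in the ketamine arrays. Every ketamine array was below every saline array, and the difference was -0.45 ± 0.09 (limma, unadjusted p = 0.000342, adjusted p = 0.87). Fos, the partner most used as a marker of active neurons, read 803, 801 and 721 in the saline arrays and 559, 535 and 629 in the ketamine arrays, and the 2 groups were apart again. Its difference was -0.42 ± 0.10 (unadjusted p = 0.000853).

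Fosl2, a Fos-related partner in AP-1, differed by -0.30 ± 0.10 with 374, 438 and 365 in the saline arrays and 337, 308 and 301 in the ketamine arrays. Fosb differed by -0.28 ± 0.12 and its groups, 347, 399.7 and 328 against 291, 262 and 321, were apart by a small margin. Jun and Jund, of which the second is made constitutively in many cells, differed by -0.10 ± 0.13 and -0.08 ± 0.09. Atf3, a stress-induced factor that binds the same sites, was 1 of the 2 members of all 4 lists with a higher mean, at 0.01 ± 0.10, which turned below 0 under quantile and cyclic loess normalization.

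The other activity-induced transcription factors numbered 17, and all 17 had lower means, with a median of -0.17 and 6 at an unadjusted p under 0.05. Egr2, a zinc finger factor of the same family as Egr1, read 315, 376 and 313 in the saline arrays and 212, 169 and 296 in the ketamine arrays. Its difference of -0.57 ± 0.16 was the farthest from 0 of the 58, and ketamine array 3 was close to the saline arrays while arrays 1 and 2 were far below them. Nr4a1, an orphan nuclear receptor induced by calcium, read 1762, 2051 and 1718 in the saline arrays and 1375, 1328 and 1642 in the ketamine arrays and differed by -0.35 ± 0.11 without overlap. Nr4a2, of the same family, differed by -0.44 ± 0.15, with a saline array 2 of 544 that stood above the other saline arrays and ketamine arrays of 301, 286 and 298 that lay close together.

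Npas4, a factor induced by calcium entry and hardly by other stimuli, read 1074, 1103 and 1070.2 in the saline arrays and 743, 889 and 1036 in the ketamine arrays. Its groups did not overlap, although ketamine array 3 reached almost to the saline arrays, and its difference was -0.29 ± 0.11 (limma, unadjusted p = 0.0219). Csrnp1 (-0.39 ± 0.13) and Klf4 (-0.33 ± 0.09) also had every ketamine array below every saline array. Egr1, the family member best known from memory formation, read 1789.6, 2079 and 1905 in the saline arrays and 1612, 1736 and 1732 in the ketamine arrays, and its groups were apart with a difference of -0.18 ± 0.09. Crem (-0.17 ± 0.09), Nr4a3 (-0.23 ± 0.13) and Egr4 (-0.15 ± 0.10) were lower with unadjusted p above 0.05, and the other 7 members lay between -0.16 and -0.0014.

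The immediate-early genes that act at the synapse, outside the cell or in signalling numbered 22. All 22 had lower means, with a median of -0.24 and 11 at an unadjusted p under 0.05. Arc, whose protein draws AMPA receptors off the surface of spines, read 1722, 1896 and 1614 in the saline arrays and 1294, 1359 and 1516 in the ketamine arrays. Saline arrays all exceeded ketamine arrays and the difference was -0.32 ± 0.12 (limma, unadjusted p = 0.0179). Homer1, which yields both a long scaffold and a short, activity-induced form that uncouples metabotropic receptors, read 1232, 1399.5 and 1139.8 in the saline arrays and 1095, 919 and 899.6 in the ketamine arrays and differed by -0.37 ± 0.11; the probe set does not tell the forms apart. Bdnf, named outside the rule for named genes after its values were seen, read 142, 149 and 142 in the saline arrays and 132, 99.7 and 122 in the ketamine arrays. Its difference was -0.27 ± 0.12 (unadjusted p = 0.0465), with no overlap and ketamine array 2 lowest, and it was -0.17 (unadjusted p = 0.223) without that array.

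Pcsk1, the convertase that cleaves neuropeptide and growth factor precursors, read 684, 732 and 682 in the saline arrays and 609.7, 503 and 495 in the ketamine arrays, and differed by -0.38 ± 0.10 with a wide gap between the groups. Tiparp, an ADP-ribosyltransferase induced by activity and by the aryl hydrocarbon receptor, read 288, 315 and 256 in the saline arrays and 223, 190.0 and 181 in the ketamine arrays, a difference of -0.50 ± 0.13. Its second probe set gave -0.18 ± 0.11, so the size for Tiparp depends on the probe set. Sik1, a kinase that restrains CREB coactivators, differed by -0.42 ± 0.12, with 404, 358 and 399.8 after ketamine all below 493, 591 and 495.

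Gadd45b and Gadd45g, linked to DNA demethylation and growth arrest, differed by -0.35 ± 0.12 and -0.30 ± 0.13, and neither overlapped. Ptgs2, the inducible cyclooxygenase, differed by -0.40 ± 0.13 and Gem, a small GTPase that limits calcium channels, by -0.44 ± 0.17, each with 1 ketamine array inside the saline range. Trib1, a pseudokinase that steers protein degradation, differed by -0.26 ± 0.12.

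MAP kinase phosphatases and feedback inhibitors switch off the ERK pathway that induced them. Of 12 measured, 11 had lower means, the median was -0.17, and 4 lay at an unadjusted p under 0.05. Dusp5, a nuclear phosphatase for ERK, read 239, 222 and 196 in the saline arrays and 165, 160.1 and 151 in the ketamine arrays. The 3 ketamine values lay within a narrow band below all saline values, a difference of -0.43 ± 0.11 (limma, unadjusted p = 0.00123). Dusp6, its counterpart in the cytoplasm, read 1065, 1072 and 1108 in the saline arrays and 931, 815 and 885 in the ketamine arrays and differed by -0.30 ± 0.09, and a second probe set gave -0.28 ± 0.17. Dusp4 differed by -0.27 ± 0.11, and Dusp14 by -0.21 ± 0.10, each without overlap.

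Dusp1 differed by -0.17 ± 0.11 and Spry2, an inhibitor upstream of ERK, by -0.17 ± 0.09, each without overlap. Spred1 (-0.17 ± 0.10) overlapped in 1 array, and the other 4 with lower means lay between -0.10 and -0.04. Dusp2, a phosphatase best known from lymphocytes, was the other member with a higher mean (0.07 ± 0.09).

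**Figure D2:**
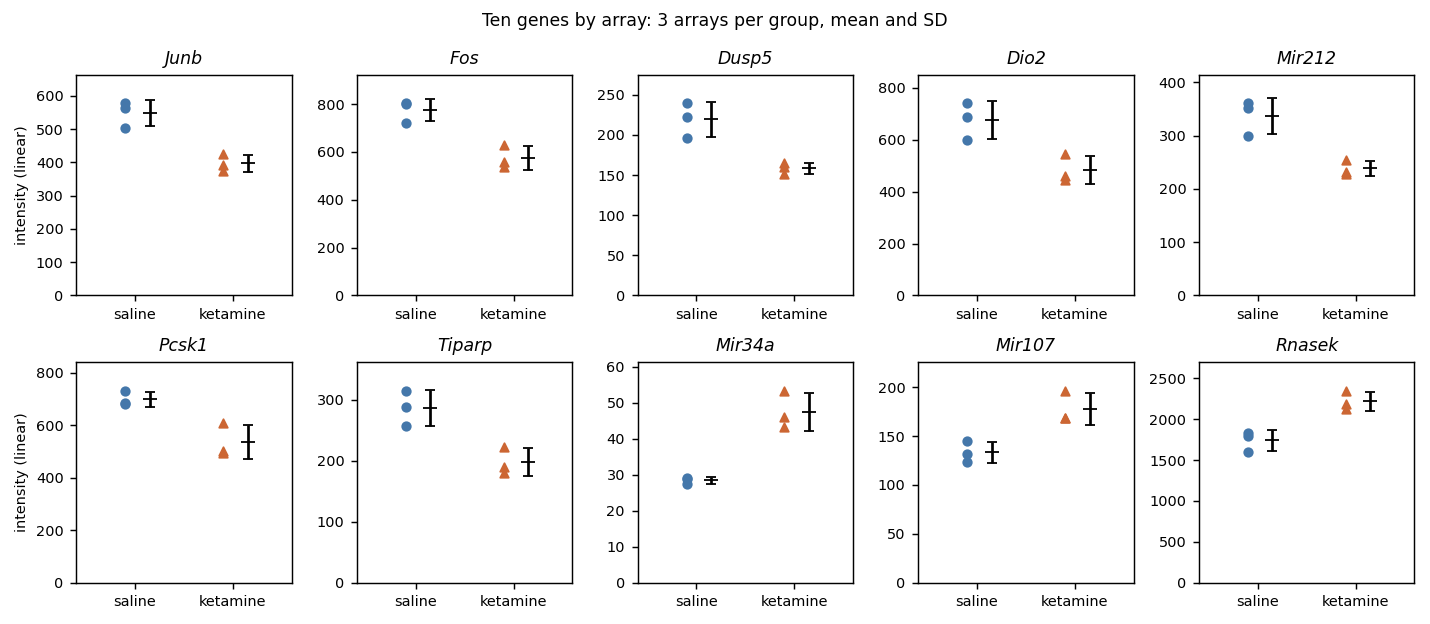
Linear intensity (y axis, from 0) of 10 genes in the 3 saline arrays (circles) and the 3 ketamine arrays (triangles), with the mean and SD of each group beside the points. The points of the 2 groups do not overlap in any of the 10 panels. Most of these genes were picked from those with the smallest unadjusted p, so this separation is not a result. Groups did not overlap in 14.4% of all genes. The first 7 genes are lower after ketamine, with differences between -0.50 (Tiparp) and -0.38 (Pcsk1) on the log2 scale. The last 3 are higher, between 0.35 (Rnasek) and 0.51 (Mir34a).

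The promoters of 6 genes are shown because their lower values lead the results. They were also picked for carrying an element of CREB, full or partial, so its presence in them is not a result. An element of SRF was found in the printed bases of Dusp5 alone. The sequences are the 150 bases before the transcription start from RefSeq (GRCm38.p6), 5′ to 3′ on the gene's strand. Capitals mark the full cAMP response element TGACGTCA (CRE), its core of 5 bases TGACG or CGTCA (CRE core), and the CArG box bound by SRF.

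Fos, chr12:85473740-85473889, plus strand: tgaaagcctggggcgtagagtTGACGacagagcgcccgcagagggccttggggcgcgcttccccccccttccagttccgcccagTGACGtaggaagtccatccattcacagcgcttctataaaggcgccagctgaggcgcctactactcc

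Junb, chr8:84978749-84978898, minus strand: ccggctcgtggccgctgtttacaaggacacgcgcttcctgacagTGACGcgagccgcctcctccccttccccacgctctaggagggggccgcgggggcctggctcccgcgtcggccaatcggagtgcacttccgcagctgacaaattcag

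Nr4a1, chr15:101266696-101266845, plus strand: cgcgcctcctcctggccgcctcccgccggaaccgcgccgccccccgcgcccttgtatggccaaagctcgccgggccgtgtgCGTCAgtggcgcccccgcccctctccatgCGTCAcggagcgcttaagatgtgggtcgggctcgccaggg

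Dusp5, chr19:53528995-53529144, plus strand: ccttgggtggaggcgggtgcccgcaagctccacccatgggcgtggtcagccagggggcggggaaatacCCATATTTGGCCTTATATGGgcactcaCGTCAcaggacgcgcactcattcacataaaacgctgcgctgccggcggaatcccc

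Pcsk1, chr13:75089707-75089856, plus strand: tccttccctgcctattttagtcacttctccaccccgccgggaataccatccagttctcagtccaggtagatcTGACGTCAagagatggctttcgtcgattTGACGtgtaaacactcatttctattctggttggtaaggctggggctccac

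Dio2, chr12:90739039-90739188, minus strand: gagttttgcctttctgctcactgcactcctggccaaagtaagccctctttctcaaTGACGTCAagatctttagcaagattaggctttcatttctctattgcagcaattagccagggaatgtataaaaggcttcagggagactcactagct

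Fos held CRE cores that begin 129 and 66 bases before the start, Junb 1 at 106 bases and Nr4a1 2 at 69 and 40 bases. Dusp5 held CArG boxes at 82 and 72 bases and a CRE core at 55. Pcsk1 held a full CRE at 78 bases and a further CRE core at 50, and Dio2 a full CRE at 95. Over promoters of 300 bases (250 before to 50 after the start, both strands), 30 of the 44 immediate-early genes with a promoter in the table held a CRE core (68.2%), beside 4560 of 16990 genes tested (26.8%). The full CRE, which contains the CRE core on both strands, was in 7 of 44 (15.9%) beside 2.65%, and the CArG box in 3 of 44 (6.82%) beside 1.67%. Within the class the CRE core did not separate the members, being in 14 of 20 at an unadjusted p under 0.05 (70%) and in 16 of 24 others (66.7%), while the full CRE was in 1 of the 20 (5%) and in 6 of the 24 (25%). A high share of CRE cores was not particular to the class. Clock output genes had 75%, cytosolic ribosomal protein genes 55.6% and cytosolic heat shock genes 53.8%. Other lists were below the share of all genes, such as AMPA and kainate receptors with auxiliary subunits at 8.33%. These letters are a description of the sequence and were not tested as binding sites.

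Thyroid hormone is activated in brain by Dio2, the deiodinase of astrocytes that converts thyroxine to its active form. Dio2 read 688, 739.8 and 598 in the saline arrays and 544, 461 and 445 in the ketamine arrays. All ketamine arrays were below all saline arrays, the difference was -0.47 ± 0.11 (limma, unadjusted p = 0.000719, adjusted p = 0.87), and a second probe set gave -0.37 ± 0.13. Slco1c1, a transporter that brings thyroxine into the brain, differed by -0.23 ± 0.10 with 678, 718 and 643 in the saline arrays and 649, 548 and 535 in the ketamine arrays, where ketamine array 1 lay inside the saline range. Dio3, which inactivates the hormone, was higher at 0.28 ± 0.13, from a dim probe set of 40.5, 41.5 and 42.3 in saline to 45.5, 56.0 and 59.9 in ketamine. Of the 7 measured members of the thyroid list 5 were lower and 2 higher, with a median of -0.07 that came to -0.02 under quantile normalization. The receptors Thra (-0.06 ± 0.10) and Thrb (-0.07 ± 0.10) differed by less than their standard errors.

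The clock of cortical cells runs through the activators Clock and Arntl, the repressors of the Per and Cry families and the loop of Nr1d1 and Ror receptors. Of 15 core clock genes measured, 14 had lower means, with a median of -0.10 and 1 at an unadjusted p under 0.05 (6.67% beside 4.57% of all genes). Under quantile and cyclic loess normalization 11 of 15 were lower. The median was -0.08 and -0.16 in ketamine arrays 2 and 3 and -0.04 in ketamine array 1, and under quantile and cyclic loess normalization it came to -0.03 and -0.02. Bhlhe41 and Bhlhe40, E-box repressors of the clock that neuronal activity also induces, read 333, 359 and 329.9 in saline against 291, 298 and 290.2 for the first and 1777, 1729 and 1808 against 1629.8, 1492 and 1628 for the second. Neither overlapped, with differences of -0.21 ± 0.09 (limma, unadjusted p = 0.0445) and -0.16 ± 0.09. Ciart, a repressor of Clock and Arntl, was -0.23 ± 0.11 with 419, 407 and 426 in the saline arrays and 361, 336 and 359 in the ketamine arrays, again without overlap.

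Nr1d1, whose protein represses Arntl, was the member with a higher mean, 0.12 ± 0.10, and its groups overlapped. Arntl (-0.11 ± 0.10), Cry1 (-0.15 ± 0.10), Cry2 (-0.11 ± 0.10) and Rora (-0.18 ± 0.11) had lower means with overlap between the groups. Per1, a clock gene that activity induces through CREB and that was named outside the rule, differed by -0.06 ± 0.11 with an interval of -0.29 to 0.17 (95%), and Per2 was not measured. Of 9 measured genes of clock output, 7 were lower with a median of -0.05, which turned to 0.00 under quantile normalization. Among them Wee1, a cell cycle kinase under clock control, differed by -0.25 ± 0.11 and Nampt, the enzyme of NAD salvage, by -0.25 ± 0.13; ketamine array 3 was lowest in both.

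The drug's own receptor family showed no difference past the threshold. Of the NMDA subunits 6 were measured and the obligatory subunit gene Grin1 was not. Of these, 4 had lower and 2 higher means with a median of -0.09, or -0.04 under quantile normalization, and none reached an unadjusted p under 0.05 (limma, 4.57% of all genes). Grin2a, the subunit of the mature cortex, read 1253, 1236 and 1341 in the saline arrays and 1242, 1150.5 and 1062 in the ketamine arrays, and its 95% interval ran from -0.35 to 0.05. Grin2b, the subunit linked in studies of ketamine to its action on resting neurons, read 2212, 2338 and 2442 in the saline arrays and 2339, 2225 and 2128 in the ketamine arrays with an interval of -0.26 to 0.13, and a second, dimmer probe set of it gave 0.04 ± 0.09. Both intervals include 0 and are wide beside the differences described above, so these arrays do not show that the subunits were alike.

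Grin2c, which is enriched in astrocytes of the cortex, differed by -0.13 ± 0.10 on its brighter probe set and by -0.37 ± 0.12 on the other, so its 2 probe sets disagree in size. Grin3a differed by -0.13 ± 0.11, Grin2d by 0.01 ± 0.10 and Grin3b, with no overlap but dim values of 91.7, 83.1 and 86.8 against 98.9, 97.1 and 106, by 0.18 ± 0.11.

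AMPA and kainate receptor genes with their auxiliary subunits were 10 lower and 8 higher of 18, with a median of -0.01. This turned to 0.04 under quantile normalization, with 4 lower and 14 higher, and there were 0 members at an unadjusted p under 0.05. Cnih2, an auxiliary subunit that carries AMPA receptors to the surface and slows their closing, was higher without overlap, 1319, 1268 and 1284 in the saline arrays and 1329, 1498 and 1476 in the ketamine arrays, at 0.15 ± 0.09. Grik1, a kainate subunit of interneurons, was lower without overlap at -0.15 ± 0.10. No other member was without overlap, so the list had 11.1% beside 14.4% of all genes. The pore subunits Gria3 (-0.08 ± 0.09) and Gria4 (-0.10 ± 0.10) overlapped between groups. Metabotropic receptors were lower in 5 of 6, with a median of -0.10 carried by ketamine array 3 (-0.25) and of -0.02 without that array. Grm5, the postsynaptic partner of Homer1, differed by -0.14 ± 0.10.

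In the pathway from TrkB to mTOR and eEF2 kinase, 16 of 25 measured genes were lower and 9 higher, with a median of -0.03 that turned to 0.02 under quantile normalization. The counts were 10 lower and 15 higher under quantile normalization. None reached an unadjusted p under 0.05, and 2, Rheb and Gsk3b, did not overlap and were lower, 8% beside 7.89% of all genes and so no more than the background. Rheb, the GTPase that switches on mTOR, differed by -0.13 ± 0.09 with 1051, 1022 and 1075 in the saline arrays and 996, 948 and 937 in the ketamine arrays, and Gsk3b, a kinase held off by AKT, by -0.11 ± 0.09. The mRNAs of Mtor (-0.03 ± 0.09, interval -0.22 to 0.17), Eef2k (0.02 ± 0.11, interval -0.21 to 0.24) and the TrkB gene Ntrk2 (-0.02 ± 0.09, interval -0.21 to 0.17), named outside the rule for their roles, had means close to saline. Ddit4, an inhibitor of mTOR that stress and glucocorticoids induce, read 219, 161 and 168 in the saline arrays and 176, 170.5 and 122 in the ketamine arrays and differed by -0.21 ± 0.15. These are transcript levels, and the pathway is known to act by phosphorylation, which arrays do not read.

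Of 11 GABA receptor genes 9 were lower, with a median of -0.05. Under quantile or cyclic loess normalization, and without ketamine array 3, 6 were lower and 5 higher, and the median was -0.12 without ketamine array 1. Gabrd, the subunit of receptors outside the synapse that sense ambient GABA, read 307, 319 and 324 in the saline arrays and 279, 278 and 268 in the ketamine arrays. Its ketamine values lay together below the saline values at -0.19 ± 0.09 (limma, unadjusted p = 0.0416). Gabra5, the subunit behind tonic currents in pyramidal cells, was higher by a small margin without overlap at 0.08 ± 0.09, and Gabrg1 differed by -0.23 ± 0.12. Adenosine, which builds up with waking and damps excitatory release, had 5 of its handling and receptor genes measured, 1 lower and 4 higher with a median of 0.05 and 0 at an unadjusted p under 0.05.

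Of 23 receptors for monoamines, acetylcholine and opioids with opioid peptides, 14 were lower and 9 higher (median -0.05, turning to 0.01 with 11 lower and 12 higher under quantile normalization). A pair of serotonin receptors of the inhibitory class lay on opposite sides. Htr1a read 126, 115 and 120.2 in the saline arrays and 118, 91.1 and 91.7 in the ketamine arrays, with ketamine arrays 2 and 3 below and array 1 within the saline range (-0.24 ± 0.10, unadjusted p = 0.0388). Htr1b, a receptor on axon terminals, read 209, 214 and 197 in the saline arrays and 223, 244 and 262 in the ketamine arrays, higher in every ketamine array (0.22 ± 0.11, unadjusted p = 0.0603). Oprk1, the kappa opioid receptor, was also higher without overlap at 0.17 ± 0.10. Of this list 8.7% were higher without overlap, beside 6.48% of all genes, and 8.7% lower, beside 7.89%.

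Ion channels were lower in 18 of 23 with a median of -0.06, which turned to 0.01 with 11 lower and 12 higher under quantile normalization, and 0 members had non-overlapping groups, so no channel stood out. Postsynaptic scaffold and adhesion genes were lower in 15 of 20 (median -0.05, or -0.01 with 11 lower under quantile normalization), with Dlg1, a scaffold of the PSD-95 family, at -0.15 ± 0.09 and no overlap. Dlg1 was the only member without overlap, 5% of the list beside 14.4% of all genes. Genes of presynaptic release were 8 lower and 8 higher with a median of 0.00, but 3 lower and 13 higher with a median of 0.05 under quantile normalization. Slc17a6, the vesicular glutamate transporter of thalamic afferents and subcortical neurons, had the lowest difference among them at -0.36 ± 0.19, with 249, 259 and 189 in the saline arrays and 237, 185 and 124 in the ketamine arrays; ketamine array 3 lay well below all saline arrays and array 2 just below them. Syn3, a synapsin, was higher without overlap at 0.16 ± 0.10. No other gene of presynaptic release was without overlap, which gives 6.25% of that list beside 14.4% of all genes.

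The medians of heat shock and endoplasmic reticulum stress genes were lower in ketamine arrays 2 and 3 and at the saline level in array 1. Cytosolic heat shock genes were lower in 13 of 15 with a median of -0.14, and medians by ketamine array of -0.01, -0.16 and -0.20. Under quantile normalization the median was -0.07. Hspe1, a member of this list, is a chaperonin of mitochondria that heat also induces, so the list is not strictly cytosolic. Hspe1 read 356, 369 and 338 in the saline arrays and 300.0, 308 and 281 in the ketamine arrays (-0.25 ± 0.10). Dnajb5, a cochaperone, read 751, 799.7 and 809 in the saline arrays and 674, 678 and 679 in the ketamine arrays (-0.21 ± 0.10). Both were without overlap, at unadjusted p of 0.0256 and 0.044 (limma).

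Endoplasmic reticulum stress genes were lower in 15 of 18 with a median of -0.09, or -0.03 under quantile normalization, and 0 at an unadjusted p under 0.05. Glucocorticoid-responsive genes were lower in 13 of 21 (median -0.06). Pdk4, the kinase that turns off pyruvate dehydrogenase, read 229, 239 and 223 in the saline arrays and 198, 172 and 175 in the ketamine arrays and differed by -0.32 ± 0.12 without overlap, while Fkbp5 (-0.12 ± 0.09) and Tsc22d3 (-0.17 ± 0.11), which glucocorticoids induce most reliably in brain, overlapped between groups.

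Cytokine and chemokine genes had 10 higher and 4 lower means of 14, with a median of 0.13, and most of their probe sets were dim. Dim genes as a class were higher after ketamine (given below), and the median of the list was 0.07 without ketamine array 3. Tnf read 94.0, 95.6 and 96.9 in the saline arrays and 99.0, 121 and 129 in the ketamine arrays, higher in every ketamine array at 0.24 ± 0.11, and Il1b 46.6, 56.0 and 53.8 in the saline arrays and 49.9, 33.8 and 42.2 in the ketamine arrays, at -0.24 ± 0.11 with ketamine array 1 inside the saline range. Il10, an anti-inflammatory cytokine, was higher at 0.29 ± 0.15 without overlap.

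Subunits of the respiratory chain were lower in 59 of 66 measured genes, with a median of -0.11 and a span from -0.32 to 0.08. At an unadjusted p under 0.05 were 6, all lower, which is 9.09% beside 2.35% of all genes and 2.52% of the brightest quintile. Groups did not overlap in 17, all lower, 25.8% beside 7.89% and 12.8%. Among them were Ndufa2 of complex I with 344, 339.6 and 299 in the saline arrays and 289, 245 and 255 in the ketamine arrays (-0.30 ± 0.11), Uqcrq of complex III with 299, 283 and 287 in the saline arrays and 249, 262 and 210.2 in the ketamine arrays (-0.26 ± 0.11) and Cox4i1 of complex IV with 1302, 1331 and 1205 in the saline arrays and 1049, 1108 and 1150.5 in the ketamine arrays (-0.21 ± 0.09). Median levels by array were 0.09, -0.04 and -0.04 in saline and -0.01, -0.13 and -0.17 in ketamine, so saline array 1 was highest and ketamine array 1 lay among the saline arrays. The list's median was -0.04 under quantile and cyclic loess normalization, where the median of all genes was 0.00.

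Cytosolic ribosomal protein genes were lower in 45 of 58 with a median of -0.08 (-0.05 under quantile normalization), 6 lower (10.3% beside 2.35% of all genes) and 1 higher (1.72% beside 2.21%) at an unadjusted p under 0.05. Rps28 read 536, 561 and 527 in the saline arrays and 467, 449 and 399 in the ketamine arrays (-0.30 ± 0.11), but its second probe set gave 0.07 ± 0.10. Rps19 (-0.29 ± 0.10) likewise had a further probe set, at -0.0036 ± 0.09. Ribosomal protein genes have many processed copies in the genome and can share probes with them, so single members are uncertain. Cholesterol synthesis genes were 9 lower and 9 higher of 18 with a median of 0.00, and Cyp51 had the lowest unadjusted p at -0.21 ± 0.13 without overlap.

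**Figure D3:**
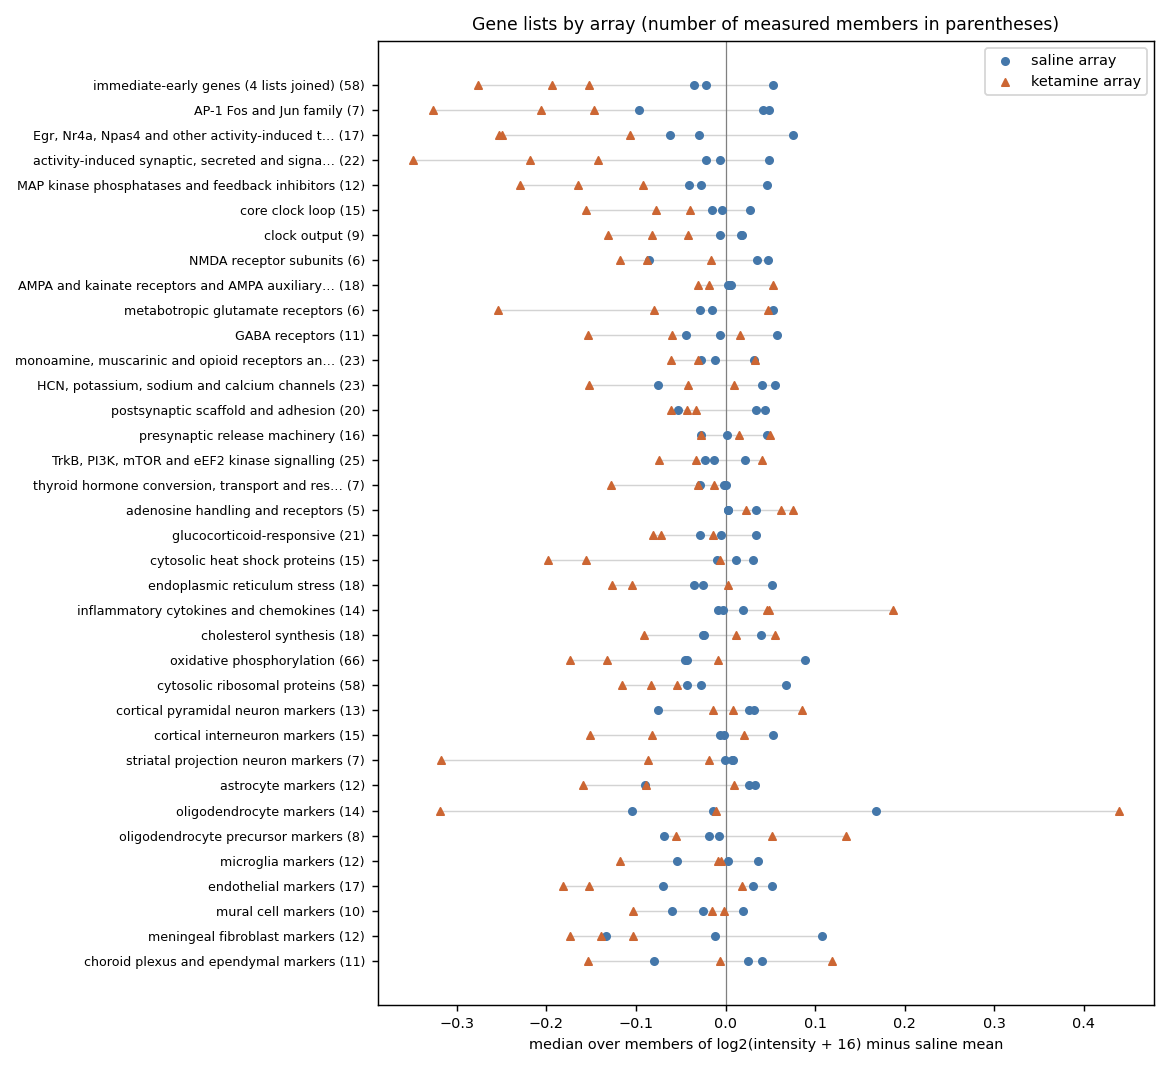
Each row is a gene list with its number of measured members; the x axis is the median over members of log2(intensity + 16) minus the saline mean, circles are the 3 saline and triangles the 3 ketamine arrays. The 4 immediate-early rows at the top have all triangles left of all circles. The same holds for the core clock, clock output, cytosolic ribosomal protein and striatal marker rows. Over the 58 immediate-early genes together the medians are -0.15, -0.28 and -0.19 for ketamine. The oligodendrocyte row has the widest spread of triangles, from -0.32 to 0.44. Normalization to equal distributions brings the medians of most other lists nearer to 0.

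Markers of cell types describe what each dissection held. Cortical pyramidal markers were close to saline, with 6 lower and 7 higher of 13 and a median of 0.04, and Slc17a7, the vesicular glutamate transporter of cortical excitatory neurons, read 2795, 2691 and 2900.0 in the saline arrays and 2811, 2965 and 2847 in the ketamine arrays. The marker was at a like level on all 6 arrays, and neither group stood apart. Striatal markers were lower in 7 of 7 with a median of -0.08, or in 5 of 7 under quantile normalization and without ketamine array 3, and ketamine array 3 was lowest at -0.32. Rarb differed by -0.33 ± 0.12, with ketamine array 1 close to the saline arrays. The part of neighbouring tissue in any result was not tested.

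Interneuron markers were mixed, 9 lower and 6 higher of 15 with a median of -0.07 (-0.02 under quantile normalization). Calb2, the calcium buffer calretinin of a vasoactive intestinal peptide class of interneurons, read 128, 127 and 119 in the saline arrays and 112, 80.8 and 81.0 in the ketamine arrays. Ketamine arrays 2 and 3 were far below and array 1 just below the saline arrays, a difference of -0.40 ± 0.13 (limma, unadjusted p = 0.00826). Vip, the peptide of that class, read 730.1, 700.0 and 765 in the saline arrays and 657, 534 and 609 in the ketamine arrays, a difference of -0.28 ± 0.11 without overlap (unadjusted p = 0.0202). Sst, the peptide of a class that targets dendrites, was higher in every ketamine array with 2261, 2049.8 and 2288 in the saline arrays and 2427, 2624 and 2682 in the ketamine arrays, a difference of 0.23 ± 0.10 (unadjusted p = 0.0406). Pvalb (-0.27 ± 0.13) overlapped between groups, and the shared markers Gad1 (-0.11 ± 0.12), Gad2 (-0.09 ± 0.09) and Lhx6 (0.07 ± 0.09) had differences of about their standard error or less. A marker's level is not a count of cells.

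Oligodendrocyte markers were 7 lower and 7 higher of 14, but 1 lower and 13 higher under quantile normalization and 14 higher without ketamine array 3. They differed most among the ketamine arrays. Their median was -0.01, 0.17 and -0.10 in the saline arrays and -0.01, 0.44 and -0.32 in ketamine arrays 1, 2 and 3. Mog, a protein of the outer myelin sheath, read 273, 307 and 267 in the saline arrays and 313, 439.8 and 231 in the ketamine arrays, where ketamine array 2 was the highest and array 3 the lowest of all 6. The immediate-early medians of ketamine arrays 2 and 3 were -0.28 and -0.19, and the part of oligodendrocytes in them was not tested. Precursor markers were 3 lower and 5 higher of 8 with a median of 0.08.

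Astrocyte markers were lower in 11 of 12 (median -0.08, or -0.03 with 7 lower under quantile normalization), with Aqp4, the water channel of their endfeet, at -0.16 ± 0.12. Microglia markers were lower in 9 of 12 with a median of -0.05 that turned to 0.01 with 6 lower and 6 higher under quantile normalization, and Fcrls, a homeostatic microglial receptor, differed by -0.28 ± 0.10 without overlap. Endothelial markers were lower in 14 of 17 (median -0.11, or -0.05 under quantile normalization), with Emcn at -0.23 ± 0.11. Mural markers were 7 lower of 10 (median -0.05).

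Meningeal fibroblast markers were lower in 10 of 12 with a median of -0.17, which was -0.14 under quantile normalization, and saline array 1 was highest at 0.11. Ogn, a matrix protein, read 232, 175 and 104 in the saline arrays and 98.1, 136 and 108 in the ketamine arrays and differed by -0.47 ± 0.20 with overlap. Choroid plexus transcripts were present in single arrays. Ttr, which carries thyroxine in cerebrospinal fluid, read 1624, 8428 and 109.5 in the saline arrays and 207, 467 and 138 in the ketamine arrays, and Kl read 133, 587 and 134 in the saline arrays and 124, 139.6 and 116 in the ketamine arrays. Saline arrays 1 and 2 were thus highest for Ttr, and saline array 2 alone for Kl. Of 11 choroid and ependymal markers 6 were lower and 5 higher with a median of -0.05. The part of these cells in the other results was not tested. Without saline array 2 the immediate-early median was -0.19 and 54 of 58 members were lower. In that fit 13 members were lower at an unadjusted p under 0.05 (limma, 0.951% of all genes), against 25 with all arrays (2.35%). No fit left out saline arrays 1 and 2 together.

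Probe sets named for microRNA genes numbered 483, and they read cDNA of total RNA, which does not tell a mature microRNA from its longer precursor. Of these 247 were lower and 236 higher with a median of 0.00. At an unadjusted p under 0.05, 34 were lower, which is 7.04% of them beside 2.35% of all genes, and 25 higher, 5.18% beside 2.21%. Groups did not overlap in 40 lower (8.28% beside 7.89%) and 45 higher ones (9.32% beside 6.48%). These probe sets were dim, with a median intensity of 60.2. In the 2 dimmest quintiles of genes 4.73% and 3.56% were higher at that p, and 8.79% and 11.6% were higher without overlap. The shares of higher microRNA probe sets were thus near those of dim genes. Lower at that p were 2.05% and 1.19% of these quintiles, and lower without overlap 3.74% and 3.18%. The microRNAs described in detail are shown with their mature sequences from RefSeq (GRCm38.p6), the seed at bases 2 to 8 in capitals. A hairpin was found in the table for 14 of the 16 that the rule named.

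miR-212-3p, chr11:75173443-75173464, plus strand: uAACAGUCuccagucacggcca

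miR-132-3p, chr11:75173723-75173744, plus strand: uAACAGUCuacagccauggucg

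miR-34a-5p, chr4:150068473-150068494, plus strand: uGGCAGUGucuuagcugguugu

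miR-107-3p, chr19:34820700-34820722, minus strand: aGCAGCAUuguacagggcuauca

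miR-128-3p, chr1:128202404-128202424, plus strand: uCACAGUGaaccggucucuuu

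miR-140-3p, chr8:107551288-107551308, plus strand: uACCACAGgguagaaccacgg

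Mir212 lies 203 bases before Mir132 on chromosome 11, and both are processed from 1 transcript that CREB is known to drive in active neurons. Their 3′ products share the seed AACAGUC. Mir212 read 351, 360.4 and 298 in the saline arrays and 231, 228 and 255 in the ketamine arrays, and no ketamine array reached the lowest saline array. Its difference was -0.47 ± 0.10 (limma, unadjusted p = 0.000306, adjusted p = 0.87), near those of Fos and Junb. The probe set of Mir132 read 29.3, 36.1 and 33.7 in the saline arrays and 35.3, 23.8 and 45.4 in the ketamine arrays, near the dim end of the array, with overlapping groups and a difference of 0.03 ± 0.14. The 2 probe sets of the cluster thus did not go together, and that of Mir132 was read at a much dimmer level than that of Mir212.

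Mir34a, which p53 induces and whose targets include cell cycle genes, had the smallest unadjusted p of all genes with a higher mean. It read 29.0, 28.9 and 27.4 in the saline arrays and 46.0, 43.2 and 53.4 in the ketamine arrays, with every ketamine array above every saline array, a difference of 0.51 ± 0.11 (unadjusted p = 0.000437). Its probe set was about as dim as that of Mir132, with mean intensities of 39.0 and 36.7 over all 9 arrays. Both lay in the dimmest quintile of genes, which as a whole had a median difference of 0.05. Mir107, within the gene Pank1 on chromosome 19 and of the miR-103 seed family, read 123, 145 and 131 in the saline arrays and 168, 196 and 168 in the ketamine arrays and was higher at 0.38 ± 0.10, while Pank1 itself was lower at -0.21 ± 0.14. Mir128-1, within R3hdm1 on chromosome 1 and among the most abundant of brain microRNAs, read 651, 736 and 687 in the saline arrays and 584, 432 and 442 in the ketamine arrays. Its difference was -0.51 ± 0.12 without overlap, beside -0.12 ± 0.10 for R3hdm1. Mir140, within Wwp2 (-0.07 ± 0.10) and best known from cartilage, was dim, 55.3, 47.8 and 47.8 in the saline arrays and 36.7, 30.2 and 37.4 in the ketamine arrays, at -0.39 ± 0.10. The hosts were named for their position. Among the microRNAs that the rule named, not all of them described here, 9 were found within a tested gene. All 9 hosts had lower means in the deposited scaling. Of these 9 microRNAs 5 were lower and 4 higher, so that 4 of 9 pairs lay on opposite sides of 0.

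The genes with the smallest unadjusted p in each direction differed in brightness. Of the 15 lower ones, Junb, Fos, Dio2, Dusp5, Mir212 and Mir128-1 were in the brightest 2 quintiles, as were Vcpkmt, a lysine methyltransferase (-0.43 ± 0.11), and Zfp948, a zinc finger gene (-0.40 ± 0.10). The others were dim, among them Gm14459 (-0.79 ± 0.15), Olfr378 (-0.64 ± 0.13), Mir1264 (-0.63 ± 0.14), Asb15 (-0.41 ± 0.10), Defb3 (-0.41 ± 0.11) and Tlr8 (-0.37 ± 0.09). Of the 15 higher ones, 1 was in the brightest 2 quintiles. This was Rnasek, a small membrane protein that regulates the proton pump of endosomes, which read 1799, 1595 and 1832 in the saline arrays and 2119, 2189 and 2348 in the ketamine arrays and differed by 0.35 ± 0.09 without overlap.

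Another 7 of the higher genes were odorant receptors of the nose, with Olfr830 (7.27, 3.55 and 15.1 in the saline arrays and 26.4, 26.8 and 35.0 in the ketamine arrays) at 0.90 ± 0.22 and Olfr1336 (49.4, 44.0 and 51.5 in the saline arrays and 66.5, 72.2 and 80.9 in the ketamine arrays) at 0.47 ± 0.11 as examples, and the others were Mir34a, Mir107, Nxpe5 (0.48 ± 0.11), Psg21 (0.46 ± 0.12), Gm20043 (0.37 ± 0.10), Rnf225 (0.34 ± 0.09) and Gm6249 (0.33 ± 0.09). Cortex is not known to use odorant receptors, whose 1394 probe sets with those of the vomeronasal organ were 596 lower and 798 higher with a median of 0.03, and they read the dim end of these arrays. In the brightest quintile 112 genes were lower and 6 higher at an unadjusted p under 0.05. The 6 were Rnasek, Sst, Sh3bgrl3 (0.25 ± 0.11), Fxyd7 (0.23 ± 0.10), Mir1956 (0.35 ± 0.15) and Chrna4, a subunit of the nicotinic receptor (0.25 ± 0.11, but 0.13 without ketamine array 2). All but Rnasek and Sst were named here after their values were seen.

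The difference between the groups moved with brightness. Medians over quintiles of genes, from dimmest to brightest, were 0.05, 0.06, 0.00, -0.07 and -0.06, and 79.3% of the brightest quintile had a lower mean after ketamine. Ketamine array 3 carried most of this, at 0.12 and 0.14 in the 2 dimmest and -0.16 and -0.14 in the 2 brightest quintiles. Ketamine array 2 was at -0.07 and -0.06 in the brightest 2, and ketamine array 1 lay between 0.0026 and 0.013 in the 5 quintiles. Without ketamine array 3 the brightest quintile had a median of -0.03 and the dimmest of 0.01. Lists of bright genes and lists of dim genes can be read only against these medians.

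**Figure D4:**
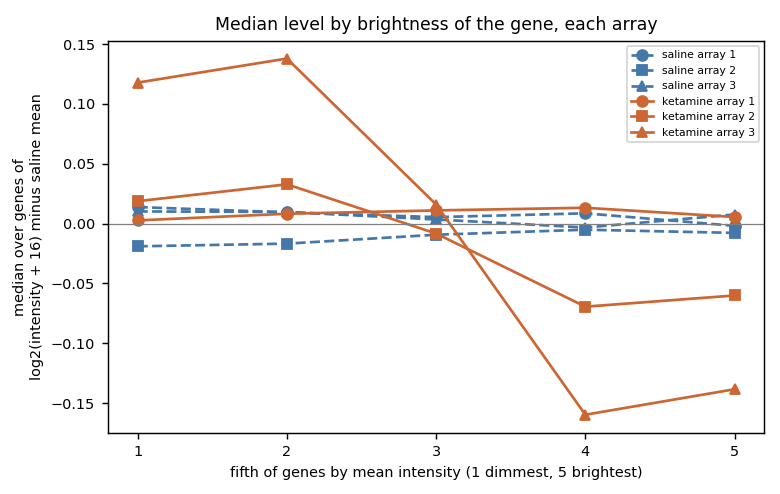
The y axis is the median over genes of log2(intensity + 16) minus the saline mean for each quintile of genes by mean intensity (x axis, 1 dimmest to 5 brightest); lines are single arrays, dashed for saline and solid for ketamine. Ketamine array 3 runs from 0.12 in the dimmest to -0.14 in the brightest quintile, ketamine array 2 ends at -0.06, and ketamine array 1 lies with the saline arrays.

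Quantile normalization, which gives all arrays the same distribution, and cyclic loess, which fits brightness trends between arrays and was added after the data were seen, brought the brightest quintile to 50.8% and 50.1% lower. Under these the immediate-early median was -0.15 in both, with 52 of 58 members lower, 21 and 20 of them at an unadjusted p under 0.05 (2.64% and 2.49% of all genes lower at that p) and 17 not overlapping (6.62% and 6.6%). The Fos and Jun genes then had a median of -0.21 and -0.20, the synaptic and signalling effectors of -0.19 and -0.18, and the MAP kinase feedback genes of -0.10. Without ketamine array 3 the immediate-early median was -0.21, and without ketamine array 3 and saline array 2 together, also added after the data were seen, it was -0.19 with 54 members lower. The oxidative phosphorylation, heat shock, endothelial and clock medians came closer to 0 under both normalizations. With cyclic loess the heat shock median was -0.07, the endothelial -0.06, the oxidative phosphorylation -0.04 and the clock -0.02. Which values are nearer to the tissue's own cannot be told from these arrays, since the sources used here do not give the authors' normalization.

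**Figure D5:**
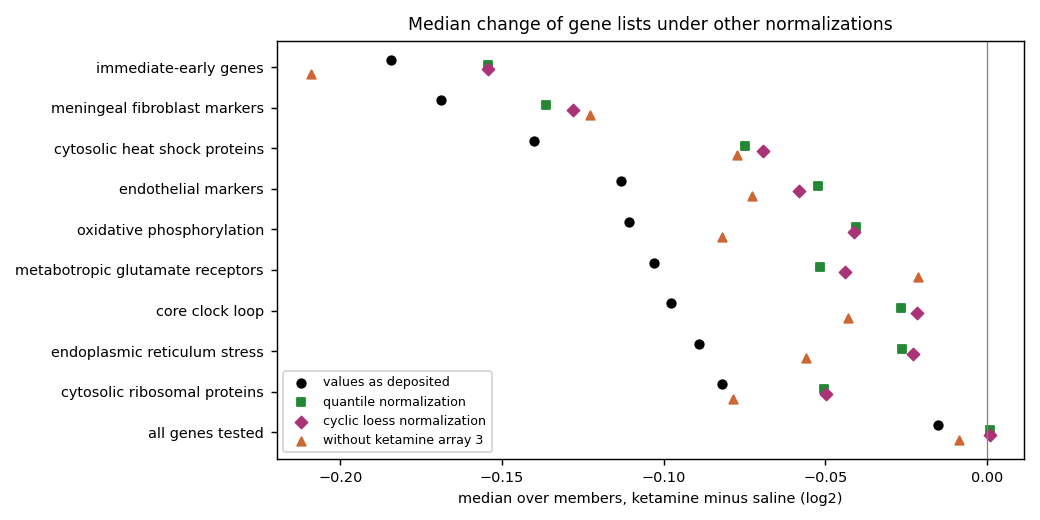
Each row is a list; the x axis is the median difference, ketamine minus saline, on the log2 scale, and the 4 symbols are the values as deposited, quantile and cyclic loess normalization, and the values without ketamine array 3. Immediate-early genes move from -0.18 to -0.15 under both normalizations and to -0.21 without ketamine array 3, while the clock loop moves from -0.10 to -0.03, -0.02 and -0.04.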

How the data were processed

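Total RNA of dissected anterior cingulate cortex was measured on 9 Affymetrix arrays. The authors summarised probes to probe sets with PLIER 2.0 in Affymetrix Expression Console 1.1.1, per the submitters' processing notes. Linear intensity was deposited for 41345 probe sets. The sources used here do not give the background correction or normalization. Of the probe sets, 23521 had 1 gene symbol in the platform annotation, 1814 several and 16010 none, and 23328 of the first matched RefSeq. For 1082 genes with several probe sets the one with the highest mean intensity over the 9 arrays was used, which gave 22180 genes. No pair of arrays was identical (0 pairs). Here log2(intensity + 16) was computed, and limma 3.58.1 (R 4.3.3; functions lmFit, contrasts.fit and eBayes) was fitted to all 9 arrays in 3 groups, with 6 residual degrees of freedom, no covariate and Benjamini-Hochberg adjustment at 0.05. An exact permutation test of 3 against 3 arrays cannot go below p = 0.1 and was not used. The fit was tested on simulated data.

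The 35 gene lists are textbook lists and were described by counts and medians, with no test of a list. The comparison, its members and the lists were chosen with earlier results of these data known. The rule for named genes took the 15 genes with the smallest unadjusted p in each direction. It took all members of lists with up to 14 measured. Of longer lists it took the 10 with the smallest unadjusted p and the 2 largest in the other direction. It also took the 15 microRNA probe sets with the smallest unadjusted p with Mir132, and list genes with several probe sets. The text gives only part of the genes that this rule covers. In many lists these are members with a small unadjusted p or without overlap, so they do not stand for their list. Second probe sets were fitted with all 41345. Promoters and microRNAs came from RefSeq tables of GRCm38.p6. Alternatives covered normalization, centring, offsets of 1 and 64, a filter on dim genes, the mean over probe sets, the 6 arrays alone, limma-trend, array weights, a replicate block, all probe sets and each array left out.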

Additional observations from a re-analysis of the deposited data

How the results depend on the processing

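No setting but array weights called a gene at an adjusted p under 0.05 (limma), and that one called 1439 with 6087 at an unadjusted p under 0.05. The unadjusted count was 1866 with the 6 arrays alone, 895 to 1162 over the offsets, quantile normalization, cyclic loess and limma-trend, 454 to 1871 when 1 array was left out (lowest without saline array 2, highest without ketamine array 1, and 483 without ketamine array 3) and 330 without saline array 2 and ketamine array 3 together. Cyclic loess and that last setting were chosen after seeing the data. The share of genes whose groups did not overlap was 21.2% to 38.3% with 1 array left out and 32.9% with both left out, since fewer arrays make a gap more likely. The immediate-early median was -0.24 with array weights and -0.21 to -0.18 with 1 array left out. The clock median was -0.027 under quantile normalization, -0.022 under cyclic loess, -0.12 to -0.043 with 1 array left out and -0.036 with both left out. The oxidative phosphorylation median was -0.16 to -0.066 with 1 array left out. The cause of these shifts was not tested.

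Saline and ketamine arrays share replicate numbers. Deviations of same-numbered arrays correlated at 0.0505 to 0.117, so the numbers were not taken to pair the arrays; as a hint only, each array correlated best with its own number. With the replicate block 0 genes were called and 1254 lay at an unadjusted p under 0.05.

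Directions turned for 9 of 137 named genes, each with a difference smaller than its standard error. Under quantile normalization Atf3 was -0.0068, Grin2d -0.0051, Mir132 -0.0064, Mtor 0.040 and Ntrk2 0.0027. Under cyclic loess Atf3 was -0.0051, Mir132 -0.015, Mtor 0.046, Ntrk2 0.0084 and Wwp2 0.00012. Array weights gave Atf3 -0.11, Eef2k -0.043, Grin2d -0.033 and Mir132 -0.24. With both arrays left out Atf3 was -0.016, Mir132 -0.071 and Mtor 0.018. With 1 array left out the values ran from -0.037 to 0.088 for Atf3, -0.064 to 0.064 for Eef2k, -0.044 to 0.060 for Grin2d and -0.12 to 0.20 for Mir132. They ran from -0.063 to 0.38 for Mog, -0.074 to 0.0066 for Mtor, -0.054 to 0.023 for Ntrk2 and -0.10 to 0.0033 for Per1. At 3 arrays a group, differences under about the standard error of 0.109 cannot be read. Larger ones are not thereby resolved, since no gene passed the adjusted threshold without array weights. Dim genes are compressed by the offset.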

Other observations

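Probe sets without a gene symbol were not part of the comparison above. In a fit of all 41345 probe sets (limma, 0 called at an adjusted p under 0.05), the 16010 without a symbol had 918 lower and 383 higher after ketamine at an unadjusted p under 0.05, that is 8.13%. The 23521 with 1 symbol had 377 lower and 325 higher in the same fit, 2.98%. The shares whose groups did not overlap were close, 15% and 14.4%, as were the median differences, -0.01 and -0.02. Probe sets without a symbol were dimmer, with a median intensity of 76.3 against 127. What they read is not known here, and the cause of the unequal shares was not tested.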
